A study of Mus musculus with 6 samples.

Results

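The genes of the TGF-β superfamily, 35 in all, were followed in bulk RNA-seq of CD11b+ cells taken from tumors of control mice and of mice with an induced loss of host MCT2. They were the rows of the deposited count table, which lists 25701 genes, that carry the symbol of a named member. The list held 10 ligands, 5 proteins that store or process ligands outside the cell, 10 receptors, 5 Smads and 5 nuclear corepressors and ubiquitin ligases. There were 3 MCT2 CO and 3 MCT2 KO preparations of cells. All animals were male MCT2loxP/loxP; Cre+ mice on a C57BL/6 background, treated at 8 weeks of age. MCT2 KO mice received tamoxifen, which switches on the Cre recombinase to delete MCT2 (gene *Slc16a7*), and MCT2 CO mice of the same genotype received the vehicle. The effect of tamoxifen itself and that of the deletion cannot be told apart in this design, and the Cre acts throughout the host rather than in macrophages alone. TC1 cells, a mouse lung epithelial tumor line, were placed under the skin of the flank 2 days after the treatment, and tumors were taken 24 days later. Cells were released with collagenase and selected with magnetic beads for CD11b, a surface integrin of myeloid cells. The labels of the samples give lung for the tissue and purified macrophages for the cells. The labels number the replicates, although the names of the knockout libraries do not follow that numbering, and do not say whether each is a separate mouse, so p values measure the spread between these 6 preparations.

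TGF-β superfamily ligands are secreted dimers. TGF-β itself leaves the cell in a latent complex that latent TGF-β binding proteins (LTBPs) tether to the extracellular matrix. An active ligand joins type II and type I receptor kinases. The type I receptor then phosphorylates Smad2 and Smad3 for TGF-β and activins, or Smad1 and Smad5 for most BMPs, and these enter the nucleus with the shared partner Smad4. Ski and SnoN (*Skil*) hold Smad-bound genes silent there, and Smurf ligases mark receptors and Smads for degradation. In tumors, macrophages both make TGF-β and respond to it, and the pathway is best known there for immune restraint, matrix deposition and wound-like remodeling.

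The total counts ranged from 24863611 to 31713704 per sample. Values are given as CPM, the counts of a gene scaled to a common library size after TMM normalization, and log2 fold changes compare MCT2 KO with MCT2 CO. *Slc16a7* itself was at 12.8 ± 2.84 CPM in MCT2 CO and 6.18 ± 1.78 CPM in MCT2 KO. Every knockout sample was below every control sample, and the mRNA was reduced rather than absent. Macrophage genes were abundant, their 12 markers summing to 5687 to 7559 CPM in MCT2 CO and 6725 to 10620 CPM in MCT2 KO. The gene of CD11b, *Itgam*, had 1 count over all samples and could not serve as a check of the selection. Of its exon bases, 99.1% lie inside the span of another annotated gene. Markers of fibroblasts were also high, at 2601 to 4235 CPM in MCT2 CO and 2229 to 2376 CPM in MCT2 KO, so the preparations were not macrophages alone. In principal components of the 500 most variable genes, MCT2 CO replicate 3 and MCT2 KO replicate 2 stood apart from the other samples.

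No member of the pathway passed the test between MCT2 KO and MCT2 CO. Of the 35 members, 34 had enough reads to be tested, and edgeR's quasi-likelihood test called 0 of them, a call needing an adjusted p up to 0.05 together with a log2 fold change of 0.58 or more in either direction. The background was the same, with 0% of the 13485 genes tested called, and the smallest adjusted p of any gene in edgeR was 0.145. The member with the smallest adjusted p in edgeR was *Amh*, at 0.370. At an unadjusted p under 0.05, 3 members were lower in MCT2 KO, against 5.6% of all genes, and 1 was higher, against 3.77% of all genes. The 3 lower members were *Amh*, *Ltbp2* and *Ltbp4*, and the higher one was *Acvr1b*. In 5 of the tested members every MCT2 KO sample lay below every MCT2 CO sample, as did 8.77% of all genes, and in 1 member every MCT2 KO sample lay above, as did 7.07% of all genes. DESeq2, run on every gene that had a count, called 1 of the 35 members, *Amh*, and 0.448% of all genes. For a single gene with 3 samples a group, an exact two-sided permutation test cannot give a p below 0.1. Below these thresholds, 27 of the 34 members (79.4%) had a log2 fold change under 0, compared with 49.9% of all genes, and the median was −0.11 over the members and 0.00037 over all genes. Most of these differences were small and lay inside the spread between replicates. MCT2 KO replicate 2 was the lowest sample in 15 of the 34 members, against 22.7% of all genes. MCT2 CO replicate 3 was the highest in 11 of the 34, against 24.9%. Members of a pathway can vary together across samples, so the share below 0 does not count separate observations. Fewer cells of a type and less RNA per cell cannot be told apart in such bulk samples.

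**Figure D1:**
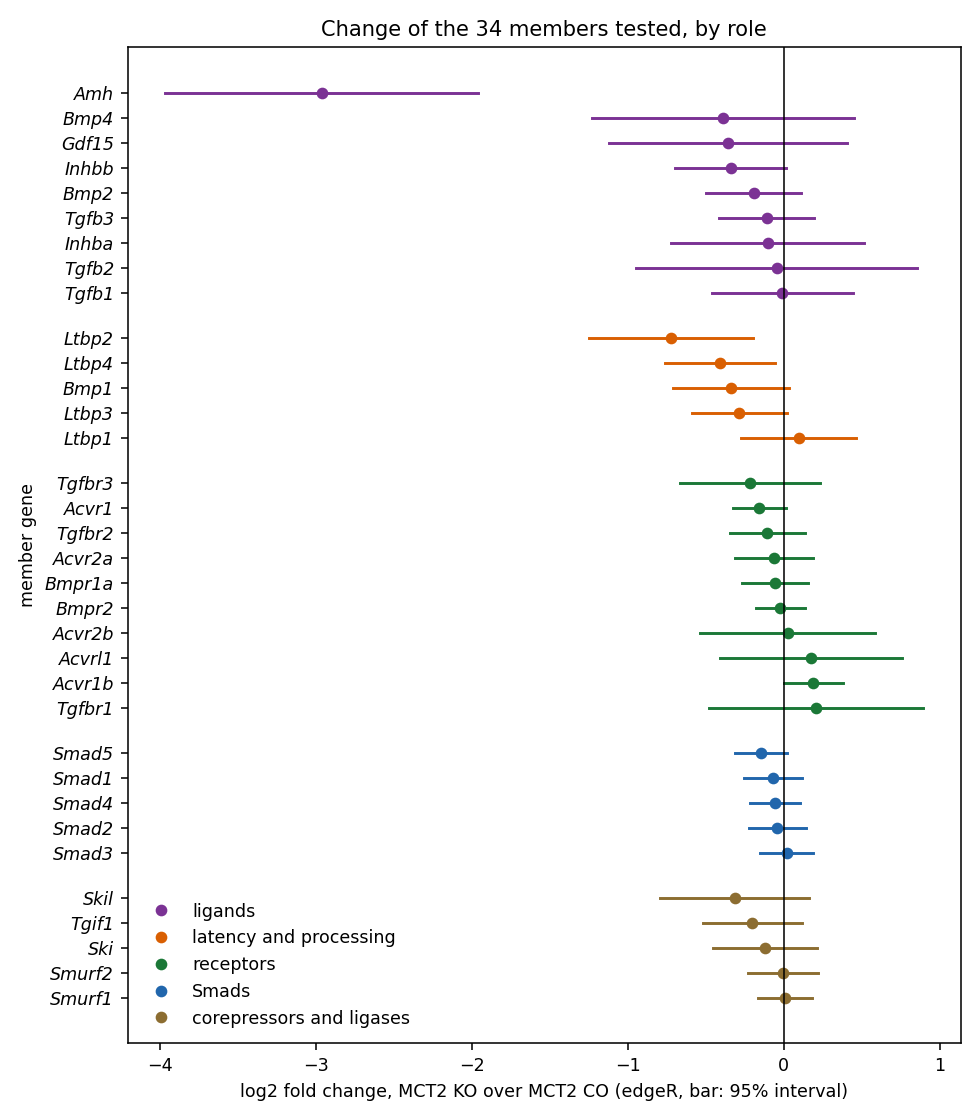
Log2 fold change of MCT2 KO over MCT2 CO for the 34 members tested, grouped by role, with dots for the edgeR estimate from 3 samples a group and bars for its 95% interval. *Amh* lies far below the others at −2.96, *Ltbp2* and *Ltbp4* follow at −0.72 and −0.41, and the 5 Smads lie between −0.15 and 0.02.

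Levels were compared between genes per kb of exon. The deposited gene lengths are whole spans, so reads within introns may be in the counts. The order of genes with unlike spans is therefore approximate. *Bmp2* was the most abundant member in MCT2 CO, at 107 ± 13.9 CPM per kb (SD, n = 3). *Skil* at 64.4 ± 3.95 and *Tgif1* at 55 ± 7.86 CPM per kb came next, both of them nuclear brakes on Smad transcription. The type I TGF-β receptor *Tgfbr1* stood at 48.5 ± 13 CPM per kb and the type II receptor *Tgfbr2* at 39.8 ± 2.54 CPM per kb. Their ligand *Tgfb1* was at 30.2 ± 5.55 CPM per kb, while *Tgfb3* was at 6.78 ± 0.652 and *Tgfb2* at 0.214 ± 0.104 CPM per kb. The TGF-β mRNA in these cells was therefore mainly *Tgfb1*. In the plotted order of all members, from *Skil* down to *Tgfb1*, the MCT2 CO samples of each gene overlapped those of the next, whereas *Tgfbr2* and *Tgfb1*, which are not adjacent in it, did not overlap. The lowest members were *Bmp6*, *Tgfb2* and *Amh*, each below 1 CPM per kb in every sample.

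**Figure D2:**
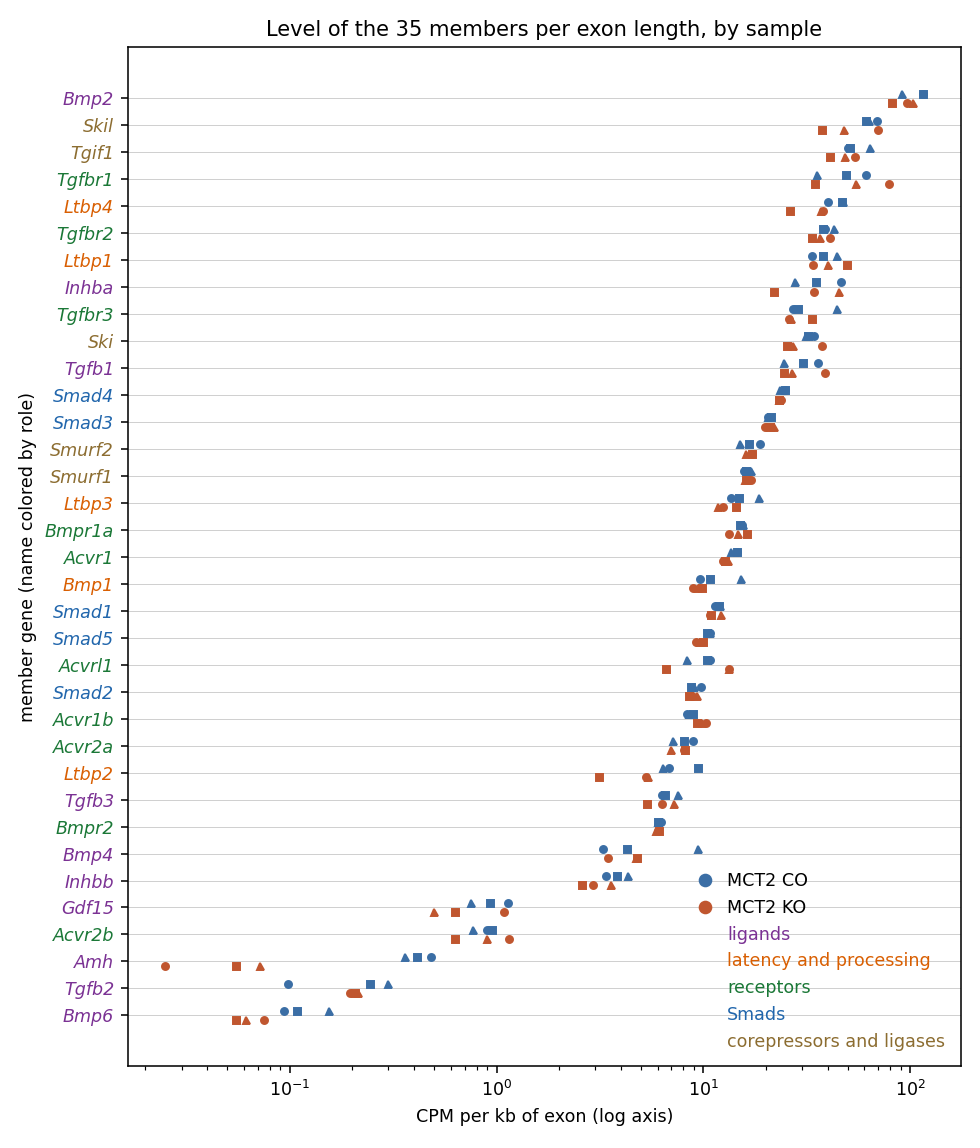
CPM per kb of exon (log axis) of each of the 35 members in every sample, ordered by the MCT2 CO mean, with colors for the groups, shapes for the replicate number and gene names colored by role. The order runs from *Bmp2* at 107 CPM per kb in MCT2 CO to *Bmp6* at 0.119, and *Amh* is the member whose groups lie farthest apart.

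Among the ligands, all 9 that were tested had a log2 fold change below 0 (median −0.19), but *Amh* was the only one whose groups did not overlap and the only one under an unadjusted p of 0.05. *Amh* (ENSMUSG00000035262), on the plus strand of chromosome 10 of GRCm38 from 80805243 to 80807648, encodes anti-Müllerian hormone, known as the Sertoli cell signal that removes the Müllerian duct in male embryos. The MCT2 CO samples gave 24, 18 and 16 counts of it, and the MCT2 KO samples gave 1, 3 and 3. All control samples were above all knockout samples, at a level close to the limit of these libraries. The log2 fold change was −2.96 (SE 0.43) by edgeR, where the adjusted p was 0.370, and −3.02 by DESeq2, where the adjusted p was 0.0236. Summed over the samples, 58 counts stood against 7, a depth-corrected ratio of 0.123 with an exact 95% interval of 0.0472 to 0.269 that covers counting error only. Its receptor *Amhr2* was itself at 0.547 CPM in MCT2 CO and 0.47 CPM in MCT2 KO on average, with overlapping groups. The genes beside *Amh* on the chromosome were checked, since a short gene with few reads can take up those of a neighbour. *Sf3a2*, which ends 318 bases before *Amh* on the same strand, had a log2 fold change of −0.08 with overlapping groups. *Jsrp1*, 847 bases beyond it on the other strand, had 27, 9 and 26 counts in MCT2 CO and 9, 10 and 11 in MCT2 KO. Whether reads of *Jsrp1* or of longer transcripts entered the *Amh* count was not tested.

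*Tgfb1* (ENSMUSG00000002603), the main TGF-β ligand here, stood at 180, 152 and 124 CPM in MCT2 CO and at 195, 123 and 135 CPM in MCT2 KO. The groups overlapped fully, and the log2 fold change was −0.01 with a 95% interval of −0.46 to 0.44. *Inhba* and *Inhbb* encode the subunits of activin A and activin B. *Inhba* was at 231 ± 58.6 CPM in MCT2 CO and 215 ± 74.1 CPM in MCT2 KO. *Inhbb* was lower in level and more even, at 16.3 ± 2.05 and 12.9 ± 2.16 CPM, with a log2 fold change of −0.34 whose interval of −0.70 to 0.01 just reached 0. Of the bone morphogenetic proteins, *Bmp2* was at 381 ± 49.6 CPM in MCT2 CO and 333 ± 40 CPM in MCT2 KO. *Bmp4* was at 12.7 ± 7.4 and 9.67 ± 1.66 CPM, the control mean being raised by 21.1 CPM in replicate 3, and without that sample its log2 fold change turned to 0.19. *Bmp6* was counted 11, 11 and 16 times in MCT2 CO and 7, 7 and 6 times in MCT2 KO, too few for the test, although its groups did not overlap. *Tgfb2* was at 1.24 ± 0.603 and 1.19 ± 0.0568 CPM, and *Gdf15*, a stress-induced ligand, at 1.74 ± 0.355 and 1.37 ± 0.572 CPM. *Tgfb3* was at 22.9 ± 2.2 and 21.3 ± 3.15 CPM, with 44.7% of its exon bases inside the span of other genes, chiefly *Ttll5*, where counting can lose reads.

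Among the LTBPs and their partner *Bmp1* (median log2 fold change −0.34), *Ltbp2* and *Ltbp4* were lower in every MCT2 KO sample than in any MCT2 CO sample. *Ltbp2* (ENSMUSG00000002020) encodes an LTBP that binds fibrillin but not latent TGF-β, and it was at 55.9, 77.4 and 52.3 CPM in MCT2 CO replicates 1 to 3 and at 43, 25.6 and 43.9 CPM in MCT2 KO replicates 1 to 3. The samples were separated by a narrow gap, with MCT2 KO replicate 2 far below the rest. Its log2 fold change was −0.72 with a standard error of 0.23, an unadjusted p of 0.0129 and an adjusted p of 0.433 in edgeR. Without MCT2 KO replicate 2 the log2 fold change of *Ltbp2* was −0.51. *Ltbp4* (ENSMUSG00000040488), which helps assemble elastic fibres and binds latent TGF-β1, was at 259, 304 and 306 CPM in MCT2 CO and at 246, 168 and 240 CPM in MCT2 KO. Here too the groups were split by a small gap and MCT2 KO replicate 2 was the lowest. Its log2 fold change was −0.41 with a standard error of 0.15, an unadjusted p of 0.0281 and an adjusted p of 0.491 in edgeR, and it was −0.25 without MCT2 KO replicate 2.

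The stretches just upstream of both gene starts are shown because these LTBPs were both lower in MCT2 KO and lowest in its replicate 2. They are RefSeq promoter sequences of GRCm38.p6 on the minus strand, read 5′ to 3′ and ending where the first annotated exon begins, from chr12:84876533-84876741 for *Ltbp2* and chr7:27337693-27337862 for *Ltbp4*, with capitals for CAGAC or its reverse complement GTCTG, the core of a Smad binding element.
Ltbp2: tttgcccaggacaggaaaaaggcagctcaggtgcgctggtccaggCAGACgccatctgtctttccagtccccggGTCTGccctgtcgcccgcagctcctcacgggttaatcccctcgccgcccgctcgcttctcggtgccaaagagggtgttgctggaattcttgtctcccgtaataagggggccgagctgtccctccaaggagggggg
Ltbp4: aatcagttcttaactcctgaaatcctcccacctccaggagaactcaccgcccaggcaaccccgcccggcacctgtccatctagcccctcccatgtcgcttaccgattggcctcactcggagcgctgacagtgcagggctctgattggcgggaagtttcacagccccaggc
The *Ltbp2* stretch held 2 such matches and the *Ltbp4* stretch held 0. Over the 250 bases before the start, CAGAC or GTCTG occurred in 12 of the 26 members with an entry (46.2%) and in 42.2% of all 32851 promoters. The BMP-type Smad element GGCGCC, a palindrome, occurred in 5 of the 26 (19.2%) and in 9.59% of all promoters, the members being *Tgfbr1*, *Bmpr1a*, *Bmpr2*, *Ski* and *Smurf2*. A match of such short words describes the letters and is no evidence of a bound site.

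The other members of the group did not separate. *Ltbp1*, the most abundant LTBP by CPM, was at 411 ± 56.4 CPM in MCT2 CO and 438 ± 84.3 CPM in MCT2 KO, and it alone of the 4 LTBPs had a log2 fold change above 0 (0.09). *Ltbp3*, which is required to secrete latent TGF-β in bone, was at 142 ± 23.1 and 117 ± 12.7 CPM. *Bmp1*, in spite of its name a metalloproteinase that processes procollagens and LTBP1, was at 105 ± 26.3 and 83.1 ± 4.4 CPM. The log2 fold changes of *Ltbp3* and *Bmp1* were −0.29 and −0.34 with all samples and −0.15 and −0.12 without MCT2 CO replicate 3, which was the highest sample in both. The 12 fibroblast markers, whose genes include abundant collagens, summed to 2601, 2899 and 4235 CPM in MCT2 CO and to 2318, 2376 and 2229 CPM in MCT2 KO, and none of them was at 0 counts. Their summed groups did not overlap either, with or without MCT2 CO replicate 3, but the largest part of that gap lay in *Col3a1*. It was at 1187, 1252.5 and 2027.5 CPM in MCT2 CO and at 1017, 805 and 821 CPM in MCT2 KO. Of the 12 markers, 10 had a log2 fold change below 0, against 49.9% of all genes. At an unadjusted p under 0.05 in edgeR 5 were lower, against 5.6% of all genes. DESeq2 called 3 of the 12, *Col3a1*, *Dcn* and *Lum*, all lower, against 0.448% of all genes. The log2 fold changes of *Thy1* (0.53) and *Fbln1* (0.04) lay above 0. The paper states that telling TC1 cells from host stromal cells for certain would need further analyses. The part of RNA from fibroblasts or from TC1 cells in the differences of *Ltbp2*, *Ltbp4*, *Ltbp3*, *Bmp1* and *Bmp4* was not tested.

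**Figure D3:**
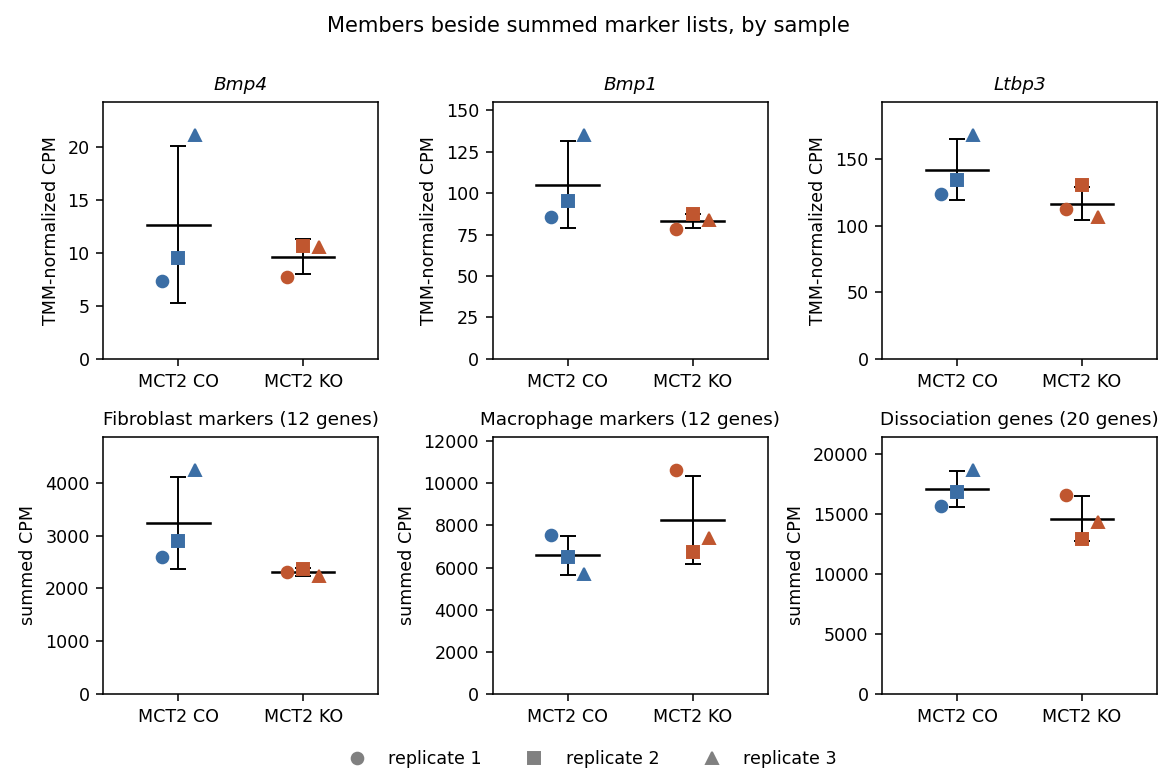
TMM-normalized CPM of *Bmp4*, *Bmp1* and *Ltbp3* in each sample (upper panels) and summed CPM of the markers of fibroblasts and macrophages and of the dissociation genes (lower panels), with lines for the mean and bars for the SD of 3 samples. MCT2 CO replicate 3, the triangle in blue, was highest in all 3 genes and in the fibroblast sum at 4235 CPM, and lowest in the macrophage sum at 5687 CPM. In genes not shown, the same sample was the highest control for *Ltbp4* at 306 CPM and the lowest control for *Ltbp2* at 52.3 CPM.

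The receptors differed little. Their median log2 fold change was −0.04, with 4 of the 10 above 0 and 6 below. *Acvr1b* (ENSMUSG00000000532), the type I receptor ALK4 for activins, was at 37, 39.4 and 37.6 CPM in MCT2 CO and at 45.7, 40.9 and 43.4 CPM in MCT2 KO. All knockout samples were above all controls, though the closest pair differed by less than 2 CPM. Its log2 fold change was 0.19 with a standard error of 0.08, an unadjusted p of 0.0491 and an adjusted p of 0.533 in edgeR. *Acvr1* (ENSMUSG00000026836), the type I receptor ALK2 for BMPs and activins, went the other way, at 70.2, 70.3 and 65.9 CPM in MCT2 CO and 60.2, 61.5 and 63.3 CPM in MCT2 KO. The groups again did not overlap, and the log2 fold change was −0.16 with a standard error of 0.07 and an adjusted p of 0.558 in edgeR.

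*Tgfbr1*, the type I TGF-β receptor, was the most variable receptor among the abundant ones. It was at 400, 321 and 230 CPM in MCT2 CO and at 513, 227 and 358 CPM in MCT2 KO, so the lowest and the highest sample were both knockouts. The log2 fold change of 0.21 had a 95% interval of −0.48 to 0.89. *Tgfbr2*, which binds TGF-β first, was steadier at 316, 311 and 350 CPM in MCT2 CO and 335, 273 and 299 CPM in MCT2 KO, with a log2 fold change of −0.11. *Tgfbr3*, the co-receptor betaglycan, was at 218 ± 60.9 and 187 ± 27.7 CPM, with 288 CPM in MCT2 CO replicate 3. *Acvrl1*, the ALK1 receptor best known from endothelium, was at 41.8 ± 5.71 and 47.2 ± 16.5 CPM, the knockout samples ranging from 28.1 to 56.9 CPM. The activin type II receptors were at 45.8 ± 5.06 and 43.8 ± 3.66 CPM for *Acvr2a* and at 3.43 ± 0.373 and 3.5 ± 1 CPM for *Acvr2b*. *Bmpr1a* was at 97.3 ± 1.62 and 93.5 ± 9.76 CPM. *Bmpr2* was the steadiest member of all, at 110 ± 1.75 and 108 ± 1.58 CPM, its highest sample being 1.05 times its lowest.

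**Figure D4:**
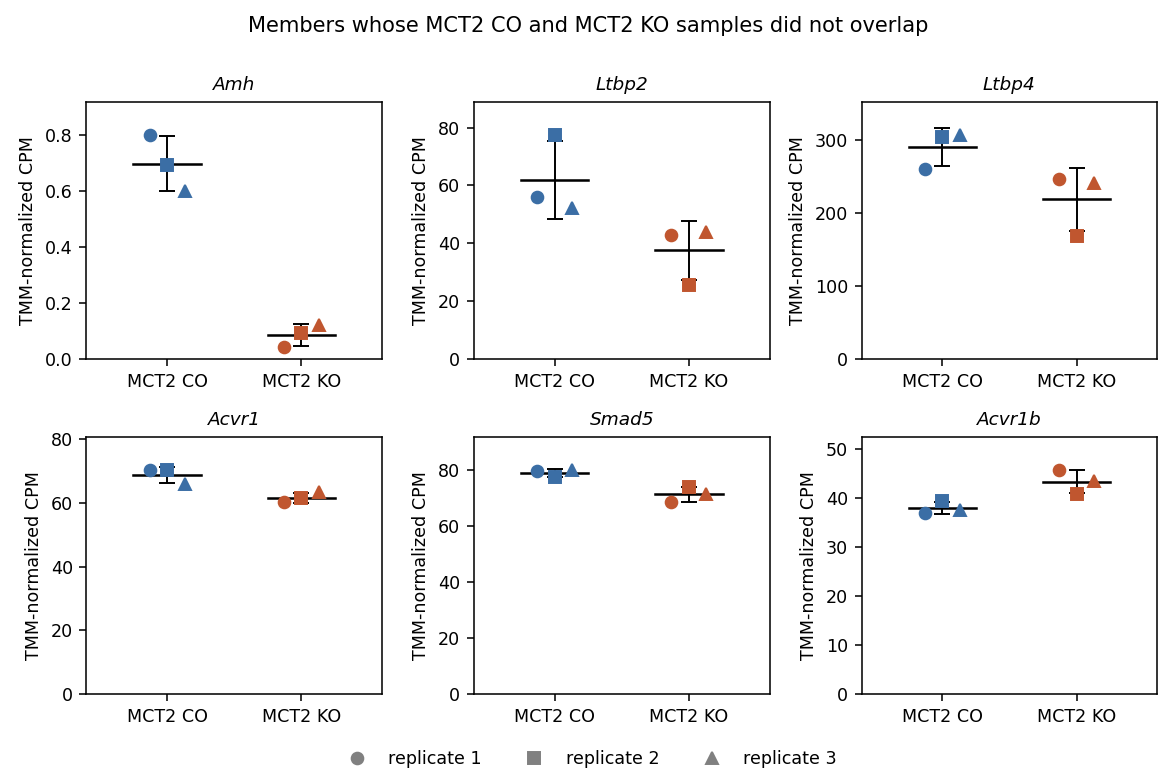
TMM-normalized CPM by sample for the 6 tested members whose groups did not overlap, with lines for the mean and bars for the SD of 3 samples a group. *Amh*, *Ltbp2*, *Ltbp4*, *Acvr1* and *Smad5* are lower and *Acvr1b* is higher in MCT2 KO, and the gap is wide for *Amh* alone.

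The Smads were even across all samples. The highest sample of a Smad was 1.07 to 1.17 times its lowest, compared with 1.41 to 19.1 times among the ligands tested. The 19.1 was that of *Amh*, at 1 to 24 counts a sample. For the ligands highest in CPM, *Bmp2*, *Inhba* and *Tgfb1*, it was 1.42, 2.1 and 1.59 times. *Smad2* was at 85.3, 76.2 and 79.3 CPM in MCT2 CO and 77.6, 74.9 and 81.4 CPM in MCT2 KO. *Smad3* was at 114, 117 and 113 CPM and at 110, 116 and 122 CPM. *Smad4* was at 91.6, 91.8 and 87.1 CPM and at 87.9, 86.3 and 86.0 CPM. The groups overlapped for all 3 genes, and their 95% intervals ran from −0.23 to 0.14, from −0.15 to 0.19 and from −0.22 to 0.11 on the log2 scale. Within those bounds, no difference in the mRNA of the TGF-β Smads was detectable, and their phosphorylation is not measured by RNA-seq. *Smad5* (ENSMUSG00000021540), a BMP Smad, was at 79.6, 77.5 and 80.0 CPM in MCT2 CO and at 68.6, 74.0 and 71.5 CPM in MCT2 KO. Each knockout sample was below each control, with a log2 fold change of −0.15, a standard error of 0.07 and an adjusted p of 0.572 in edgeR. *Smad1*, the other BMP Smad, was at 73.9 ± 2.15 and 70.4 ± 4.81 CPM with overlapping groups.

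**Figure D5:**
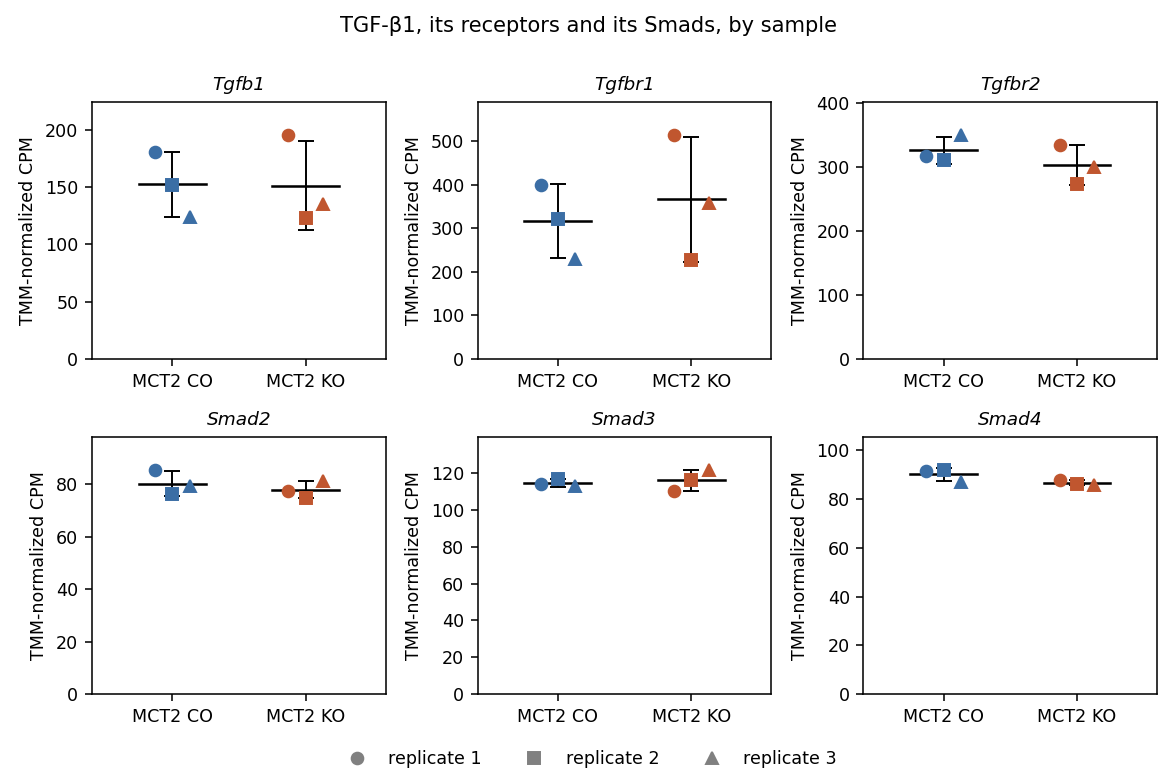
TMM-normalized CPM by sample for the ligand *Tgfb1*, the receptors *Tgfbr1* and *Tgfbr2* and the Smads *Smad2*, *Smad3* and *Smad4*, with lines for the mean and bars for the SD of 3 samples a group. The groups overlap in every panel, and *Tgfbr1* spreads from 227 to 513 CPM while *Smad4* stays between 86.0 and 91.8 CPM.

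The nuclear corepressors and ubiquitin ligases had no member whose groups separated. *Skil*, which is itself induced by TGF-β, was at 624 ± 38.3 CPM in MCT2 CO and 502 ± 161 CPM in MCT2 KO, with 679, 363 and 463 CPM in the knockout samples, and its log2 fold change was −0.32 with an interval of −0.79 to 0.16. It was −0.59 without MCT2 KO replicate 1 and −0.13 without MCT2 KO replicate 2. *Ski* was at 181 ± 8.1 and 166 ± 35.9 CPM, and *Tgif1*, a homeodomain corepressor of Smad2, at 309 ± 44.2 and 269 ± 36.4 CPM. All 3 corepressors were lowest in MCT2 KO replicate 2. The ligases *Smurf1*, at 103 ± 4.01 and 103 ± 3.56 CPM, and *Smurf2*, at 104 ± 11.7 and 103 ± 3.84 CPM, showed log2 fold changes of 0.007 and −0.005. Over all members, MCT2 KO replicate 2 was the lowest sample in 15 of 34, against 22.7% of all genes, and MCT2 CO replicate 3 the highest in 11 of 34, against 24.9% of all genes.

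A further 107 genes of the pathway outside the list were counted by role, 78 of them tested. None passed edgeR's adjusted threshold, 16 were lower and 1 was higher in MCT2 KO at an unadjusted p under 0.05, against 5.6% and 3.77% of all genes, and 17 lay wholly below and 1 wholly above the controls, against 8.77% and 7.07%. DESeq2 called 4 of them, *Msx1*, *Id3*, *Hes1* and *Dcn*, all lower, against 0.448% of all genes. Transcriptional targets made up most of these, with 11 of the 25 tested lower at an unadjusted p under 0.05 and 0 higher, and a median log2 fold change of −0.33. The lists were chosen with earlier results of these data known, so their shares beside all genes are a description and no independent support. Among the 9 antagonists tested 2 were lower, among the 12 activating factors 2, and among the 22 Smad partners 1 was lower and 1 higher, while the 5 other ligands and the 5 coreceptors tested had none. The homeobox gene *Msx1*, a BMP target, had the smallest p of these genes, at 13.4, 11.5 and 15.4 CPM in MCT2 CO and 7.97, 7.89 and 7.83 CPM in MCT2 KO (log2 fold change −0.77, SE 0.14). The knockout samples of *Msx1* were almost equal and all lay below the controls. *Id1*, an inhibitor of DNA binding induced by BMP through Smad1 and Smad5, had a log2 fold change of −1.50 (SE 0.31). Its relative *Id3* had one of −1.12 (SE 0.26). *Id1* was at 99.7, 95.5 and 186 CPM in MCT2 CO and 61.8, 34.3 and 39.1 CPM in MCT2 KO. For *Id3* the values were 98.4, 91.8 and 173 CPM and 67, 43.9 and 55.9 CPM. The control means of both were raised by MCT2 CO replicate 3. *Hes1*, a repressor best known from Notch, was at 25.3, 22 and 41.3 CPM in MCT2 CO and 15.8, 14.5 and 14.7 CPM in MCT2 KO. The other genes of smallest p with separated groups were *Snai1* (−0.51), *Sphk1* (−0.91), *Id4* (−1.58), *Junb* (−0.76) and *Cdkn2b* (−0.50) among the targets and the matrix proteoglycan *Dcn* (−0.98), which binds TGF-β, among the antagonists, the values being log2 fold changes. MCT2 CO replicate 3 was the highest control for each of these. In the MCT2 CO samples *Sphk1* was at 7.74, 8.88 and 15.2 CPM and *Dcn* at 27.9, 25.8 and 54.1 CPM. *Dcn* is also in the fibroblast list and *Junb* in the list of 20 genes induced when tissue is dissociated. The dissociation genes summed to 15720 to 18670 CPM in MCT2 CO and 12930 to 16620 CPM in MCT2 KO, 8 of the 20 being lower at an unadjusted p under 0.05. The summed fibroblast markers were higher in MCT2 CO, largely through *Col3a1*, as given above. Of the 11 macrophage markers tested, 10 had a log2 fold change above 0 (median 0.27) and 1 had one below 0. In edgeR 1 was higher at an unadjusted p under 0.05, and 0 lay wholly higher. Markers of other blood cells also differed. Of the 8 neutrophil markers tested, 6 lay wholly higher in MCT2 KO and DESeq2 called 5 (median log2 fold change 1.70). The summed list overlapped, at 83.3 to 103 CPM in MCT2 CO and 69.6 to 186 CPM in MCT2 KO. Most of this sum was *Csf3r*, at 93, 94.3 and 70.9 CPM in MCT2 CO and 120, 41.1 and 118 CPM in MCT2 KO. Wholly lower in MCT2 KO were 3 of 8 B cell markers, whose sums were 87.0 to 104 and 33.4 to 117 CPM. Most of the B cell sum was *Ighm*, at 62.5, 73.7 and 72.7 CPM in MCT2 CO and 81.7, 19.5 and 95 CPM in MCT2 KO. Also wholly lower were 5 of 10 NK cell markers, whose sums were 60.4 to 101 and 70.4 to 127 CPM. In the NK cell list 3 of the 10 had a log2 fold change above 0, among them *Prf1* (1.12) and *Gzmb* (0.64), and 0 lay wholly higher. The part of any of these lists in the lower target genes was not tested.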

How the data were processed

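Poly-A RNA of 3 MCT2 CO and 3 MCT2 KO preparations of CD11b+ cells was sequenced with a stranded kit. Per the labels and the submitters' processing notes, the authors used FastQC 0.12.0 and MultiQC 1.28 for read quality and STAR 2.7.11b for alignment to GRCm38, and deposited raw counts per gene from featureCounts 2.1.1, without normalization or pooling. The annotation and strand setting of the counting are not given in the sources used here. Groups and replicate numbers follow the sample titles.

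Of 25701 genes in the table, 25645 were found in GENCODE M21, 98.1% with an equal span length but only 2.41% with an equal start, so GRCm38 positions were taken from GENCODE M21 by Ensembl identifier. Gene lengths in the table are whole spans, and the exon lengths used for CPM per kb are from GENCODE M21. Counts assigned to gene spans can be lost where genes overlap.

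Counts were analysed as deposited with R 4.3.3. Genes were kept by filterByExpr of edgeR 4.0.16 (minimum count 10, minimum total count 15), normalized by TMM and compared with the quasi-likelihood test without covariates. Benjamini-Hochberg adjustment ran over 13485 genes. A call needed an adjusted p up to 0.05 together with a log2 fold change of 0.58 or more in either direction. Standard errors were taken as the fold change over the root of its F statistic. The alternatives were DESeq2 1.42.0, limma 3.58.1 (voom), other normalizations and filters, a replicate block, and samples left out. Upstream sequences came from the RefSeq promoter table (GRCm38.p6), which held 26 of the 35 members; annotation, motifs and figures were handled with Python 3.11.15.

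On counts simulated from these samples with 200 of 13406 genes changed 2-fold (1 on the log2 scale), the quasi-likelihood test found 69% (6.76% of calls were false) and DESeq2 found 76% (15.6% of calls were false). Total counts of 24863611 to 31713704 make counting error small except below about 1 CPM. No replicate pair was similar enough to be the same library. Same-numbered samples had deviations correlated at 0.216, −0.247 and −0.161, and differently numbered ones at −0.212 to 0.292. These values gave no sign that the replicate numbers pair the samples. With 3 samples a group they cannot exclude it.

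All 35 members are named. Values by sample are given for tested members with an unadjusted p under 0.05 or groups that do not overlap and for the TGF-β1 chain, and, of the other pathway genes, log2 fold changes or values for the 10 with the smallest p among those with separated groups. *Gdf3*, *Tgfbi* and *Tab1* were added after their values were seen. The members and lists were chosen with earlier results of these data known.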

Additional observations from a re-analysis of the deposited data

How the results depend on the processing

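The direction of *Amh*, *Ltbp2*, *Ltbp4*, *Acvr1*, *Smad5* and *Acvr1b* held under every alternative that gave a value, with edgeR, DESeq2 or limma-voom. *Amh* gave none under the filter of 1 CPM in 3 samples, which removes it. Depth limits *Amh*, *Bmp6* and *Tgfb2* most. The cause of the changes below was not tested unless fewer samples were used.

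DESeq2 called 1 member, *Amh*, on the filtered genes (log2 fold change −3.02, DESeq2 adjusted p 0.0254) and 1 on all genes (−3.02, adjusted p 0.0236), while it called 79 and 83 genes in all. Without a filter beyond 1 count edgeR called 2 genes and 0 members. The number of members higher in MCT2 KO at an unadjusted p under 0.05 was 0 with DESeq2 on either gene set, limma-voom, no filter, a filter of 1 CPM in 3 samples and the replicate block. The replicate numbers gave no sign of pairing the samples. The block on them gave 4 lower members at an unadjusted p under 0.05 (4.4% of all genes) in place of 3, and 0 called.

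Leaving out each replicate in turn, edgeR called 0 to 2 genes and 0 members. Members at an unadjusted p under 0.05 ranged from 1 lower (without MCT2 CO replicate 2, 4.67% of all genes) to 7 (without MCT2 CO replicate 1, 6.24%), with 5 without MCT2 KO replicate 1 (5.59%), and from 0 to 2 higher, with 2 without MCT2 KO replicate 2 (6.24%) and 0 without any other sample (2.47% to 4.07%). Members with separated groups ranged from 5 to 11 lower (11 without MCT2 KO replicate 1, 10 without MCT2 KO replicate 2 or MCT2 CO replicate 1, 8 without MCT2 KO replicate 3), against 11.6% to 16.3% of all genes, and from 1 to 2 higher, against 10.5% to 15.4%. Median log2 fold changes ranged from −0.31 (without MCT2 KO replicate 3) to −0.14 for the ligands, −0.066 to −0.033 for the Smads, −0.47 to −0.15 for the latency and processing proteins, −0.096 to 0.0059 for the receptors and −0.29 to −0.022 for the corepressors and ligases. Without MCT2 CO replicate 3 and MCT2 KO replicate 2 together, 10 genes were called, 2 members were higher at an unadjusted p under 0.05 (5.06% of all genes), 13 members separated lower (20.5% of all genes) and 2 higher (19.9%), and the ligand median was −0.029.

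Log2 fold changes near 0 changed sign in some fits. *Smurf2* was 0.0019 in DESeq2 on filtered genes, 0.0065 on all genes, 0.00062 in limma-voom, 0.0019 with DESeq2 size factors, 0.0013 without a filter and 0.00047 with the block. *Tgfb1* was 0.0014 in DESeq2 on all genes, *Tgfb2* 0.11 and *Acvr2b* −0.038 in limma-voom, and *Tgfb2* 0.034 with the block. Without the 2 samples together, *Tgfb2* was 0.28, *Tgfb3* 0.076, *Bmp4* 0.12, *Tgfbr2* 0.015 and *Tgif1* 0.018. Over the fits that left out 1 sample, the ranges were −0.23 to 0.13 for *Tgfb1*, −0.40 to 0.28 for *Tgfb2*, −0.67 to 0.19 for *Bmp4*, −0.36 to 0.13 for *Inhba*, −0.060 to 0.23 for *Ltbp1*, −0.11 to 0.46 for *Tgfbr1*, −0.34 to 0.037 for *Tgfbr3*, −0.14 to 0.020 for *Acvr2a*, −0.18 to 0.23 for *Acvr2b*, −0.13 to 0.025 for *Bmpr1a*, −0.077 to 0.0044 for *Smad2*, −0.0085 to 0.062 for *Smad3*, −0.018 to 0.037 for *Smurf1* and −0.080 to 0.084 for *Smurf2*.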

Other observations

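3 genes of the wider pathway, which are within the counts given for it, were chosen after their values were seen. *Gdf3*, a ligand of the superfamily known in macrophages, was at 17.6, 13.1 and 14.4 CPM in MCT2 CO replicates 1 to 3 and at 60.8, 3.65 and 40.5 CPM in MCT2 KO replicates 1 to 3. The knockout samples thus held both the highest values and the lowest, and the log2 fold change was 1.21 (SE 0.75) with edgeR giving an adjusted p of 0.645. *Tgfbi*, a matrix protein that TGF-β induces, was at 2681, 2533 and 1565 CPM in MCT2 CO and 4006, 2220 and 2877 CPM in MCT2 KO. The 3 highest samples were MCT2 KO replicate 1, MCT2 KO replicate 3 and MCT2 CO replicate 1. The same 3 samples were highest in *Tgfbr1*, at 513, 358 and 400 CPM, and in the summed macrophage markers, at 10620, 7415 and 7559 CPM. *Tab1*, an adaptor of the TAK1 kinase, was the 1 gene counted above as wholly higher among the tested pathway genes outside the members, at 22.7, 22.5 and 22.2 CPM in MCT2 CO and 27.7, 25.5 and 27.6 CPM in MCT2 KO (log2 fold change 0.26, SE 0.08).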
